A study of Mus musculus with 4 samples.

Results

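The miRNAs described here are 4 mature miRNAs best known from blood vessels, namely mmu-miR-143-3p, mmu-miR-145a-5p, mmu-miR-126a-3p and mmu-miR-126a-5p. They were followed in skeletal muscle by chimeric eCLIP-seq, in which an antibody pulls down Ago2, the protein that holds miRNAs on their targets, and each miRNA is joined end to end with the RNA fragment it sits on. Each line of the processed data is 1 peak with 1 miRNA and the estimated number of chimeric reads that join them. All lines that carried 1 of the 4 names were taken, whatever their reads. The 4 names, and the gene lists used below, were chosen with earlier results of these data known. The 4 miRNAs made up 2011 of 93468 lines in the control library and 2350 of 100897 lines in the mimic library. They were 4 of the 659 miRNA names seen in either.

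The tissue was plantaris muscle of male C57BL/6J mice, 5 months of age, after 10 days of mechanical overload (MOV), a surgery that removes part of the synergist muscles. In each mouse the left muscle received a control lentivirus with a scrambled sequence and the right muscle a virus carrying the miR-1 mimic, so every library comes from overloaded and virus-injected muscle. The viral promoter was CMV, which is active in many cell types and not only in muscle fibres. There were 4 libraries in 4 groups, MOV control, MOV mimic and an input for each, and the inputs were not analysed here. Whether the muscles of both sequenced libraries came from the same animals was not stated. With 1 library a group there is no replicate check, so no test between the groups was run and every interval below covers counting error only. The 31 genes of the muscle fibre list all had chimeric reads in both libraries, the markers of the labelled tissue. The control library held 232408 chimeric reads in 20754 peaks and the mimic library 259207 in 21872. Below, paired values are given with the control first and the mimic second.

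miR-143 and miR-145 are made from 1 primary transcript and are known as the miRNAs of vascular smooth muscle, where they favour the contractile state. miR-126 lies in an intron of Egfl7, a gene of endothelial cells, and its 3p strand is known for its part in vessel integrity and for restraining Vcam1, an adhesion molecule for leukocytes. Muscle fibres are rich in other miRNAs, while the vessels between the fibres bring smooth muscle, pericyte and endothelial RNA into a whole muscle sample. In such bulk material fewer cells of a type and less RNA per cell cannot be told apart.

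Of the 4 members, 1 had a mature sequence in the RefSeq miRNA table used here, miR-126a-3p at chr2:26591402-26591423 on the plus strand of GRCm38.p6. It is shown because the sites described below are read against its seed (bases 2 to 8, in capitals). The other 4 sequences are sites in the 3′ UTRs of GENCODE transcripts whose distance from the transcript end put them under its peaks, with the match to the seed in capitals (bases 2 to 8 for Vcam1, bases 2 to 7 for the other 3).
miR-126a-3p: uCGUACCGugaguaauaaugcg
Vcam1: ctacatggtactgtaCGGTACGg
Xirp2: atcaaagaaataaaagGGTACGa
Aff4: taacagctgaaactttGGTACGt
Mbnl1: gattctattatgtattGGTACGt

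All 4 miRNAs were present in both libraries, miR-143-3p and miR-126a-3p at similar levels and the other two lower. miR-143-3p had 1115 reads (control, 95% Poisson interval 1051 to 1182) and 1237 (mimic, 1169 to 1308). miR-126a-3p had 938 (879 to 1000) and 1169 (1103 to 1238), miR-145a-5p had 476 (434 to 521) and 488 (446 to 533), and miR-126a-5p had 135 (113 to 160) and 193 (167 to 222). By reads they ranked 38, 41, 52 and 88 among the 560 names of the control library and 38, 39, 53 and 82 in the mimic. Each was a small share of its library, from 0.0579% of reads for miR-126a-5p to 0.480% for miR-143-3p in the control. The methods also describe amplification of the cDNA with a primer for miR-1. How far that step shaped these peaks was not stated, so shares and ranks may depend on it.

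miR-143-3p outnumbered its cluster partner miR-145a-5p 2.34-fold (control, 95% interval 2.10 to 2.61) and 2.53-fold (mimic, 2.28 to 2.82). The 3p strand of miR-126a outnumbered the 5p strand 6.97-fold (5.80 to 8.38) and 6.05-fold (5.20 to 7.09). Both pairs thus kept their order, with overlapping intervals. The opposite strands of the smooth muscle hairpins were rarer, with 63 and 65 lines for miR-143-5p and 16 and 11 for miR-145a-3p. The near relative miR-145b had 1 line, in the control.

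Over all lines, no member moved between the libraries by as much as the 1.5-fold used as a limit, though lines of at least 3 reads took miR-126a-5p to 1.66. The mimic over control ratio of reads was 1.11 for miR-143-3p (95% interval 1.02 to 1.20), 1.03 for miR-145a-5p (0.902 to 1.17), 1.25 for miR-126a-3p (1.14 to 1.36) and 1.44 for miR-126a-5p (1.14 to 1.79). All chimeric reads together had a ratio of 1.12. Divided by it, the ratios were 0.995 (0.917 to 1.08), 0.919 (0.809 to 1.05), 1.12 (1.02 to 1.22) and 1.29 (1.02 to 1.61) in the same order. The intervals of the 2 smooth muscle miRNAs thus held the library total, and those of the 2 strands of miR-126a lay above it. Among the 148 miRNAs with at least 50 lines in each library the median ratio was 1.06 and the 5th to 95th percentiles ran from 0.764 to 1.46, a range that holds all 4 members. Of those 148, 3.38% were at least 1.5-fold higher in the mimic and 2.7% at least 1.5-fold lower, against 0 of 4 members in either direction. The ratio was larger in 8 of the 147 others than in miR-126a-5p, and in 26 than in miR-126a-3p. It was larger in 56 than in miR-143-3p and in 86 than in miR-145a-5p.

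**Figure D1:**
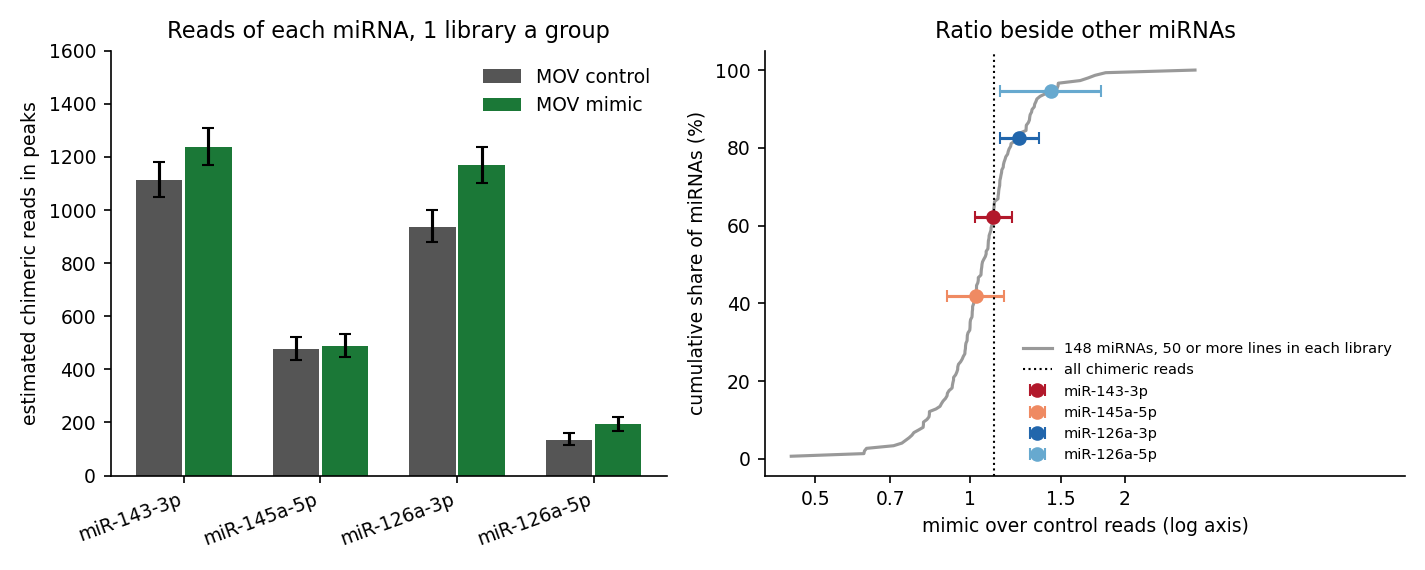
Left, estimated chimeric reads of each miRNA in the MOV control and MOV mimic libraries (bars start at 0, error bars are 95% Poisson intervals, 1 library a group). Right, the mimic over control ratio of each member on a log axis with its 95% interval, placed on the cumulative curve of 148 miRNAs. The 4 members lie between 1.03 and 1.44, inside the 5th to 95th percentiles of the curve, with 1.12 for all chimeric reads (dotted line).

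The 4 miRNAs differed widely in where their reads lay. Mitochondrial RNA took 40.3% and 38.5% of miR-126a-5p reads, and for miR-143-3p 11.5% and 12.9%, close to the 13.7% and 13.5% of all other miRNAs. For miR-126a-3p it took 2.89% and 3.66%, and for miR-145a-5p 0.505% and 0.597%. The 2 members of each pair therefore stood far apart on this measure, and in the same order in both libraries. The ribosomal RNA gene Rn18s-rs5 took between 7.89% and 18.4% of each member's reads, above the 6.63% and 6.34% of all other miRNAs, with the highest share for miR-126a-3p in both libraries (18.4% and 15.3%). Peaks on these abundant RNAs held up to 221 miRNA names at once. The following results on gene lists and target genes leave out both, and the remaining reads are called nuclear reads.

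Few of the miR-126a-3p reads lay on muscle fibre genes, although 11 and 16 of the 31 genes on that list had a read or part of one. Genes of the muscle fibre list held 3.34% of its nuclear reads (control, 95% interval 2.20 to 4.95) and 4.83% (mimic, 3.57 to 6.42), against 27.8% and 31.2% for all other miRNAs. miR-126a-5p was as low, at 1.52% (0.0384 to 8.16) and 2.97% (0.629 to 8.60), on few reads. miR-145a-5p was near the total of all other miRNAs at 27.6% (23.3 to 32.1) and 27.2% (22.9 to 31.7). miR-143-3p lay under that total, at 15.5% (13.1 to 18.1) and 18.8% (16.5 to 21.5). The median over 148 single miRNAs was lower than that total, at 14.0% and 16.4%. The muscle fibre share was higher than that of miR-126a-3p in 135 and 133 of 147 others. It was higher than that of miR-143-3p in 62 and 59 of 147, and than that of miR-145a-5p in 24 and 29.

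Genes of the endothelial list were a small part of the miR-126a-3p reads, yet a larger one than for most other miRNAs. They held 1.12% of its nuclear reads (control, 0.468 to 2.12) and 0.901% (mimic, 0.435 to 1.79), against 0.0551% and 0.0622% for all other miRNAs. A higher share was seen for 1 and 3 of 147 other miRNAs, and 1 of the latter was miR-126a-5p with 2 reads on a single gene, Fabp4, a fatty acid carrier. The miR-126a-3p reads on this list were 8.28 and 8.54 in number and were spread over 6 and 8 genes. Among them were Cdh5, the cadherin of endothelial junctions (2.58 and 0.362 reads), Kdr, a VEGF receptor (1.17 and 1.69), Flt1, another (0 and 2.83), Esam, a junction adhesion molecule (1.96 and 0.825), and Pecam1 (0 and 1.83). These 5 genes, chosen after their values were seen, are all low in reads, and no line on the list reached 3 reads. The endothelial genes together held only 109 and 140 reads of all miRNAs, and miR-126a-3p supplied 7.58% of them (control, 3.22 to 14.0) and 6.10% (mimic, 2.98 to 11.9), which ranked 3 and 2 among all names. miR-143-3p and miR-145a-5p had no control read on the list and under 1 mimic read each.

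The smooth muscle list took a larger share of the reads of the smooth muscle pair than of all other miRNAs together, and both miRNAs supplied a small part of its reads. It held 1.88% of miR-143-3p nuclear reads (control, 1.06 to 2.99) and 1.16% (mimic, 0.562 to 2.0), and 1.84% (0.830 to 3.74) and 1.55% (0.673 to 3.40) of those of miR-145a-5p, against 0.540% and 0.525% for all other miRNAs and 0.243% and 0.0835% for miR-126a-3p. A higher share was seen in 11 and 26 of 147 others for miR-143-3p and in 12 and 16 for miR-145a-5p. Of all chimeric reads on the list, miR-143-3p supplied 1.60% and 1.04% and miR-145a-5p 0.760% and 0.594%, while miR-133a-3p led with 16.7% and 19.7%. The list held 1014 and 1096 reads of all miRNAs. Des, which muscle fibres also express, held 480 and 506 of them, and Synpo2 265 and 289. The reads of the pair came from few genes. For miR-143-3p these were led by Rgs5, a pericyte gene (6 and 2.28 reads), Des (4.84 and 1.70), Acta2, smooth muscle actin (1.44 and 4), and Pdgfrb, the PDGF receptor of mural cells (2.93 and 2.10). For miR-145a-5p the leading gene was Myh11, the smooth muscle myosin heavy chain, with 3.34 and 3.67 reads, which were 36.2% and 18.1% of all chimeric reads on that gene. These genes too were chosen after their values were seen.

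Matrix and leukocyte genes did not set the smooth muscle pair apart from the other miRNAs. The fibroblast and matrix list held 4.15% and 4.02% of miR-143-3p nuclear reads and 5.0% and 4.68% of those of miR-145a-5p, beside 5.20% and 4.27% for all other miRNAs. The share was lower for miR-126a-3p, at 1.61% (0.842 to 2.82) and 1.26% (0.656 to 2.20). The macrophage and leukocyte list held at most 1.89 reads of any member in either library.

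**Figure D2:**
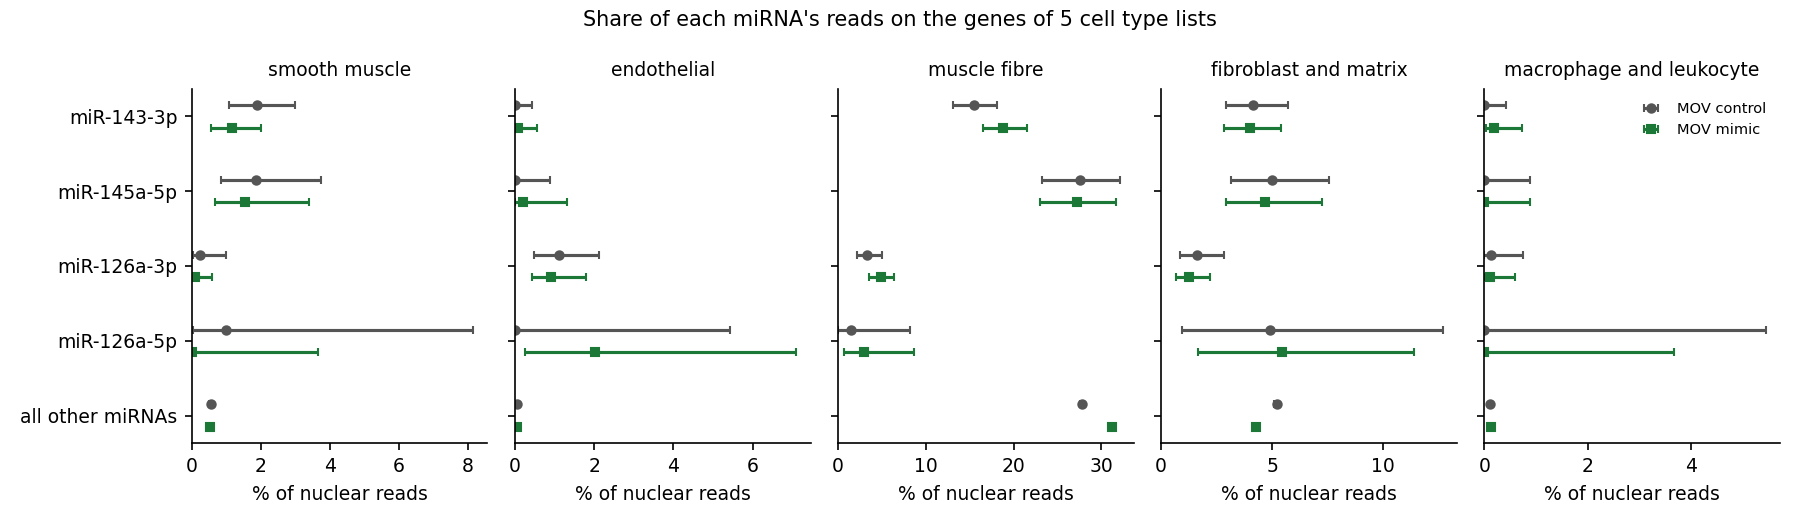
Share of the nuclear reads of each miRNA (x axes, %) that lay on the genes of 5 cell type lists in the MOV control (circles) and MOV mimic (squares) libraries, with exact 95% binomial intervals. The 2 strands of miR-126a lie far under the other miRNAs on muscle fibre genes, and miR-126a-3p lies above them on endothelial genes.

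At its stronger peaks miR-126a-3p often supplied most of the reads, although 3.78% and 3.56% of its lines were at peaks with no other name. At nuclear peaks with at least 3 of its reads, it supplied at least 50% of the chimeric reads of the peak in 24 of 35 control cases (68.6%) and 40 of 57 mimic cases (70.2%). The share was 45.5% (25 of 55) and 46.7% (28 of 60) for miR-143-3p, 8 of 21 and 6 of 20 for miR-145a-5p and 0 of 3 for miR-126a-5p, which had no such peak in the control. For all other miRNAs it was 41.6% and 41.9%. When all peaks were counted, each member most often shared its peak with miR-133a-3p, a miRNA of muscle fibres, which was present at 44.2% of miR-126a-3p peaks and 61.0% of miR-145a-5p peaks and at 36.6% of all peaks. miR-143-3p and miR-145a-5p lay at the same peak 103 times over both libraries, which is 6.88% of the miR-143-3p lines and 11.4% of the miR-145a-5p lines. Of all peaks, 2.11% held miR-145a-5p and 3.51% miR-143-3p. With miR-126a-3p, miR-143-3p shared more peaks, 173. The 2 strands of miR-126a shared 57 peaks, 3.36% of the 3p lines and 21.3% of the 5p lines. Of all peaks, 0.629% held the 5p strand and 3.98% the 3p strand. The 5p lines shared their peak about as often with miR-143-3p, at 22.4%.

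Recurrence between the libraries depended on the number of reads at a peak. Of the control peaks, 34.7% were overlapped by a mimic peak of the same miRNA for miR-143-3p (95% interval 31.1 to 38.3), 28.5% for miR-145a-5p (24.3 to 33.0), 30.3% for miR-126a-5p (21.8 to 39.8) and 21.1% for miR-126a-3p (18.3 to 24.2), against 35.7% for all other miRNAs. Between 58.7% and 69.8% of each member's lines carried under 1 read, and of those 25.5%, 23.6%, 12.5% and 13.4% recurred in the same order. Among peaks with 3 to under 10 reads the shares were 83.1%, 75.0%, 100% (9 of 9) and 72.5%, beside 80.4% for all other miRNAs. At these peaks the miR-126a-3p interval (56.1 to 85.4) held the value of the other miRNAs. Counted from the mimic it did not, with 63.1% (50.2 to 74.7) beside 78.2%.

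**Figure D3:**
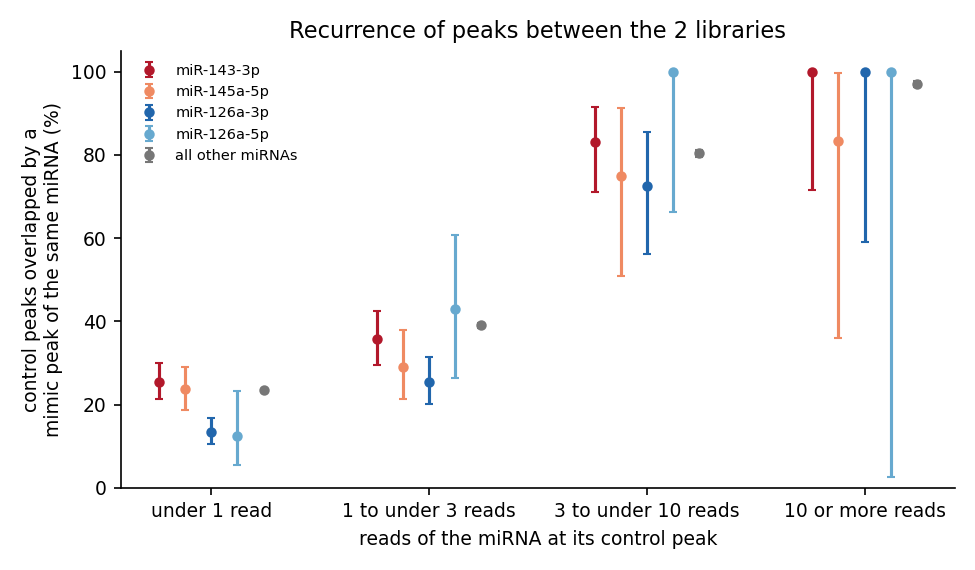
Share of control peaks that were overlapped by a mimic peak of the same miRNA (y axis, %), by the reads of the miRNA at the control peak, with exact 95% binomial intervals. All members rise with reads. Under 3 reads miR-126a-3p lies under all other miRNAs together, and under 1 read so does miR-126a-5p.

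With every line counted, miR-126a-3p had reads on the most genes in each library, and miR-143-3p had the most genes in both. miR-126a-3p had 565 and 661 genes, with 188 in both, miR-143-3p had 492 and 504 with 192 in both, miR-145a-5p had 282 and 306 with 87, and miR-126a-5p had 88 and 115 with 20. The genes in both libraries were thus 39.0% and 38.1% of the miR-143-3p genes of the control and the mimic, and 33.3% and 28.4% of those of miR-126a-3p. No value over all other miRNAs stands beside these shares, so they cannot be called high or low.

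The leading nuclear target of miR-126a-3p was Aqp1, the water channel of capillary endothelium and red cells. It had 31.0 control reads and 24.7 mimic reads, which gives a ratio of 0.797 (0.457 to 1.41). Most lay at 1 peak in its last part, chr6:55345408-55345530 on the plus strand, with 27.7 and 22.6 reads, where miR-126a-3p supplied 98.0% and 100% of the chimeric reads. Over the whole gene it supplied 91.0% and 97.7%, so hardly any other miRNA was caught on Aqp1.

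The next genes were less specific. Actb, cytoplasmic actin, had 16.0 and 26.7 reads of miR-126a-3p, and at its main peak miR-126a-3p supplied 56.7% and 51.1%. Ttn, the giant sarcomere protein titin, had 14.2 and 28.0 reads spread over 14 and 30 peaks, and miR-126a-3p made up only 0.0811% and 0.119% of the reads on that gene. Cdk8, a kinase of the Mediator complex, had 7.05 and 12.2 reads. Xirp2, an actin-binding protein of muscle, had 3.22 and 12.9. For Xirp2 and Ttn the interval of the ratio lay above 1 (1.19 to 23.7 and 1.02 to 4.11), and for the other 3 it held 1. These ratios are not scaled, and the Ttn interval held the 1.12 of all chimeric reads. All reads on Ttn numbered 17514 and 23568. The mitochondrial gene with the most reads was mt-Rnr1, with 11.9 and 11.0. By the lower share of the 2 libraries, the nuclear peak that miR-126a-3p held most fully after Aqp1 was on Bicd2, a dynein adaptor, at 83.1% and 100% of 4.51 and 3.84 reads.

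Of 14 textbook targets of miR-126a-3p, 6 had a peak of it. Vcam1 had 5.15 and 3.71 reads, at 1 peak near the gene's end (chr3:116110225-116110327, minus strand) where miR-126a-3p supplied 59.8% and 74.9% of the reads. Cxcl12, the chemokine that guides progenitor cells, had 3.30 and 4.97 reads, and its main peak was 64.3% and 65.5% miR-126a-3p. Adam9, a membrane protease, had 0 and 3.37 reads. Plk2 had 1.75 and 0, Irs1 1 and 0.538, and Spred1, an inhibitor of Ras signalling, 0.467 and 0.427. The other 8, Crk, Egfl7, Hoxa9, Lrp6, Pik3r2, Rgs16, Sox2 and Tom1, had no line of miR-126a-3p in either library. Over all miRNAs, 12 of the 14 genes had a peak. By library, 5 of the 14 had a line of miR-126a-3p in the control and 5 in the mimic. For scale, miR-126a-3p had reads on 565 and 661 genes, and all other miRNAs together on 6647 and 6942. Gja1, the gap junction protein connexin 43, is named after its values were seen, with 11.1 control reads and 1.38 mimic reads.

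Matches to seed bases 2 to 7 were more frequent in genes with many miR-126a-3p reads than in all protein-coding genes. For bases 2 to 8 this was not so at 3 or more reads once Ttn was left out, by density. The letters GGTACG, the match to seed bases 2 to 7, were looked for on the sense strand of the longest GENCODE transcript of each gene. They occurred in 9.21% of 22611 protein-coding genes, at 3.61 matches per 100 kb. Among miR-126a-3p target genes they occurred in 17.4% of 454 genes with under 1 read, 17.6% of 369 genes with 1 to under 3 reads, 26.3% of 99 genes with 3 or more, and 40.6% of 32 genes with 6 or more. Target transcripts were longer than average, so the density is given too. It was 4.46, 4.23, 6.32 and 7.09 matches per 100 kb, the last being 8.0 without Ttn. The longer match to bases 2 to 8, CGGTACG, which contains the shorter one, occurred in 1.23% of all genes, in 0.881% with under 1 read, 3.52% with 1 to under 3 and 3.03% with 3 or more, and in 3 of the 32, of which 1 was Ttn. Its density was 0.702 per 100 kb in the genes with 3 or more reads, or 0.432 without Ttn, beside 0.444 in all genes. The genes were chosen by reads over both libraries, and no test was made. The set of all protein-coding genes includes genes without reads here, and target genes of other miRNAs were not searched as a set of their own.

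The position of the matches could be set beside the peaks where both lay in a 3′ UTR. The 13 genes with 6 or more reads and a match had 20 matches, of which 6 were in a 3′ UTR, in 6 genes. In 4 of these the distance from the match to the transcript end put it inside the largest miR-126a-3p peak. For Vcam1 the match lay 231 nt from the transcript end and the peak's midpoint 256 nt from the gene end, for Xirp2 1295 and 1283 nt, for Aff4, a factor of transcription elongation, 3109 and 3109 nt, and for Mbnl1, a splicing regulator, 3012 and 3007 nt. In Itga6, an integrin of endothelial cells, the distances were 883 and 2551 nt, and in Usp9x the largest peak lay far upstream of the match. Transcript ends were those of GENCODE M1 and gene ends those of GRCm38.p6, so a few nucleotides either way are within the precision of this comparison. Aqp1 and Actb held no such letters in the transcripts searched.

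**Figure D4:**
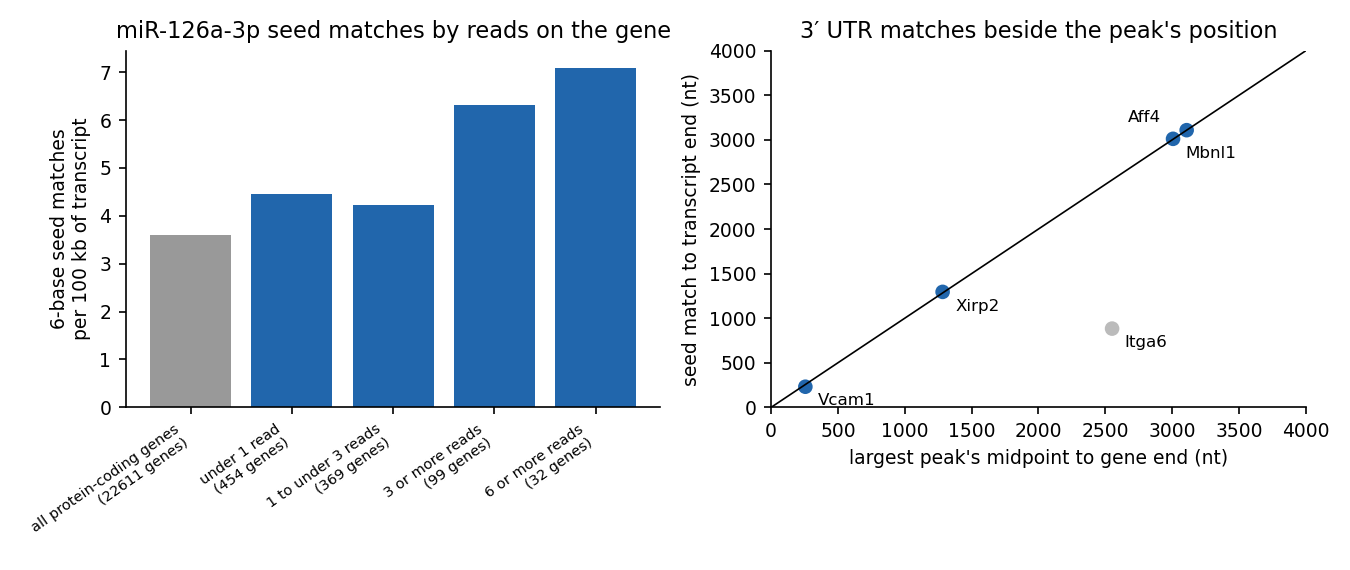
Left, matches to seed bases 2 to 7 of miR-126a-3p per 100 kb of transcript (bars start at 0) for all protein-coding genes (grey) and for its target genes by summed reads (blue, the last group lies within the one before it). Right, distance of each 3′ UTR match from the transcript end against the distance of the largest peak's midpoint from the gene end. Vcam1, Xirp2, Aff4 and Mbnl1 lie on the line of equal distance, Itga6 does not, and Usp9x is beyond the axis.

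The 2 strands of miR-126a were also ligated to each other's arm of the hairpin they come from (chr2:26591357-26591429, plus strand). On the 5′ arm, miR-126a-3p had 3.65 control reads, 100% of the peak, and 5 mimic reads, 73.2% of the peak. These peaks do not reach the mature miR-126a-3p. On the 3′ arm, miR-126a-5p had 2 control reads at chr2:26591395-26591425 and 2.40 mimic reads at chr2:26591396-26591428, 28.6% and 21.0% of those peaks. Both of these peaks cover the whole mature miR-126a-3p. On that arm the control peak held 6 names, with 1 read for each of the others, such as miR-127-3p and miR-26a-5p. The mimic peak held 8 names, among them let-7b-5p and miR-150-5p with 2 reads each and miR-126a-3p itself with 1. The few reads of miR-126a-5p there thus lay beside similar numbers of unrelated miRNAs.

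The other targets of miR-126a-5p were few. Its leading nuclear genes were Mdh1, malate dehydrogenase (2.58 and 7.56 reads), Lum, the matrix proteoglycan lumican (1.98 and 5), Igf1, the growth factor (2.17 and 3.27), Mir126a, and Klf2, the flow-responsive endothelial transcription factor (1.78 and 2.39). The interval of the ratio held 1 for each of them. Mitochondrial RNA was higher, with 22.1 and 25.7 reads on mt-Rnr2, 12.9 and 11.1 on COX1 and 8.07 and 10.5 on ND4. miR-126a-5p made up 7.27% and 3.68% of all chimeric reads on COX1 but only 0.242% and 0.272% of those on mt-Rnr2. None of its 7 textbook targets had a peak of it, and 3 of them had a peak of any miRNA. For scale, miR-126a-5p had reads on 88 and 115 genes, and all other miRNAs together on 6647 and 6942.

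The nuclear reads of miR-143-3p were led by 2 sarcomere genes. Ttn had 56.0 and 79.0 reads, and Myh1, the fast 2X myosin heavy chain, had 25.0 and 50.7. These are large totals of abundant transcripts, of which miR-143-3p made up 0.329% and 0.427% over both libraries. Its largest Ttn peak, chr2:76766115-76766147 on the minus strand in the mimic, had 30.5 reads of it, 49.4% of that peak. The control peak over the same place was wider (chr2:76766116-76766222), with 25.3 reads, 14.1% of it. The Myh1 ratio of 2.03 had an interval above 1 (1.24 to 3.44), while all chimeric reads on Myh1 numbered 6380 and 11358. Malat1, a long noncoding RNA of the nucleus, had 30.9 and 39.3 reads, nearly all at 1 peak where miR-143-3p supplied 62.5% and 65.1%. Itm2b, a membrane protein of the BRICHOS family, had 24.6 and 23.5, nearly all at chr14:73362899-73362968 on the minus strand. Of the reads at the Itm2b peak, 92.2% and 86.3% were miR-143-3p. Pygm, muscle glycogen phosphorylase, had 10.1 and 9.94. The mitochondrial gene with the most reads was ND5, with 70.9 and 90.2.

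By the lower share of the 2 libraries, the nuclear sites that miR-143-3p held most fully were on Septin8, a cytoskeletal GTPase, with 94.3% and 96.3% of 8.33 and 6.98 reads, and the Itm2b peak. Among genes known as its targets, Hk2, hexokinase 2, had 4.29 and 2.02 reads of it, while Klf5, Elk1 and Map3k7 had no line of it.

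The nuclear genes with the most miR-145a-5p reads included 4 of the contractile apparatus. Tpm1, tropomyosin 1, which smooth and striated muscle both express, had 26.3 and 28.7 reads, and its main peak (chr9:67047829-67047912, minus strand) was 19.4% and 16.0% miR-145a-5p. Ttn had 25.4 and 16.8 reads, Tnnt3, fast troponin T, 19.3 and 16.2, Myh1 7.87 and 21.4, and Col1a1, type I collagen, 3.87 and 9.06. Of these 5 genes the ratio's interval was above 1 for Myh1 (1.12 to 6.85) and held 1 for the rest. These ratios are not scaled, and all chimeric reads on Myh1 numbered 6380 and 11358. Mitochondrial RNA was almost free of it, with 1 and 1.90 reads on mt-Rnr2, its leading mitochondrial gene.

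By the lower share of the 2 libraries, miR-145a-5p held most fully a peak on Tgfbr2 and 1 on Ccn1. In the control, its largest Ttn peak (chr2:76875872-76875920, minus strand) had more reads than either, 14.7, which were 86.5% of that peak. Of the 6 control peaks with 10 or more miR-145a-5p reads, it was the only 1 that no mimic peak of this miRNA overlapped. Tgfbr2, the type II TGF-beta receptor and a textbook target, had 4.84 and 6.77 reads at a peak 328 nt from the gene end (chr9:116087974-116088072 in the mimic, minus strand), 100% and 71.5% of its reads. Ccn1, a matricellular protein, had 6.19 and 3.44, 79.4% and 64.3% of the peak. Of 15 textbook targets, 3 had a peak. Srgap2 had 2.63 and 0 reads, and Fscn1, fascin, 1 and 0. The remaining 12, among them Klf4, Klf5, Myocd and Sox9, had no line of miR-145a-5p, and 12 of the 15 genes had a peak of any miRNA. By library, 3 of the 15 had a line of miR-145a-5p in the control and 1 in the mimic. For scale, miR-145a-5p had reads on 282 and 306 genes, and all other miRNAs together on 6647 and 6942.

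At peaks shared by both libraries the reads changed little for most sites. Peaks that were each other's largest overlap and had at least 3 reads of the miRNA in both numbered 39 for miR-143-3p, 10 for miR-145a-5p, 25 for miR-126a-3p and 6 for miR-126a-5p. Their median log2 ratio, mimic over control, was -0.01 (95% interval -0.19 to 0.33), 0.21 (-0.54 to 0.63), 0.29 (0.03 to 0.60) and 0.44 (-0.62 to 1.49), against 0.12 for all other miRNAs. At least 2-fold higher in the mimic were 3, 0, 3 and 1 of these peaks, and at least 2-fold lower 0, 0, 1 and 0. Over the 6308 such peaks of all miRNAs 10.2% were at least 2-fold higher and 5.58% at least 2-fold lower, the background for these counts.

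Among these shared peaks only, the largest rises were at single sites with few reads. For miR-143-3p they were Zbtb20, a transcriptional repressor, from 3.79 to 14.0 reads (ratio 3.70, interval 1.10 to 14.6), and Adam9, from 3.40 to 12.4 (3.66, 1.08 to 22.1). For miR-126a-3p they were Xirp2, from 3.22 to 12.5 (3.87, 1.08 to 22.1), and mt-Rnr2, from 4 to 9.95 (2.49, 0.721 to 10.9). These ratios are not scaled, and all 4 intervals held the 1.12 of all chimeric reads. The largest for miR-126a-5p was ND4, from 3.74 to 10.5 (2.80, 0.721 to 10.9), and mt-Rnr2 followed (1.79). For miR-145a-5p they were Hdlbp, an RNA-binding protein, from 3 to 5.90, and Rn18s-rs5. The largest falls were Dpysl2, from 6.66 to 3.52, and a Ttn site, from 9.72 to 5.37, for miR-143-3p, Ccn1 and Tnnt3 for miR-145a-5p, a site of Rn18s-rs5, from 18.7 to 6.91, and Tubb5, from 6.37 to 3.63, for miR-126a-3p, and a COX1 site, from 4.91 to 3.20, for miR-126a-5p, whose other 5 sites had ratios above 1. Without the mitochondrial chromosome and Rn18s-rs5, 27, 7, 14 and 0 of these peaks remained, and miR-143-3p held at least 50% of the reads in both libraries at 13 of them, miR-145a-5p at 2 and miR-126a-3p at 11.

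**Figure D5:**
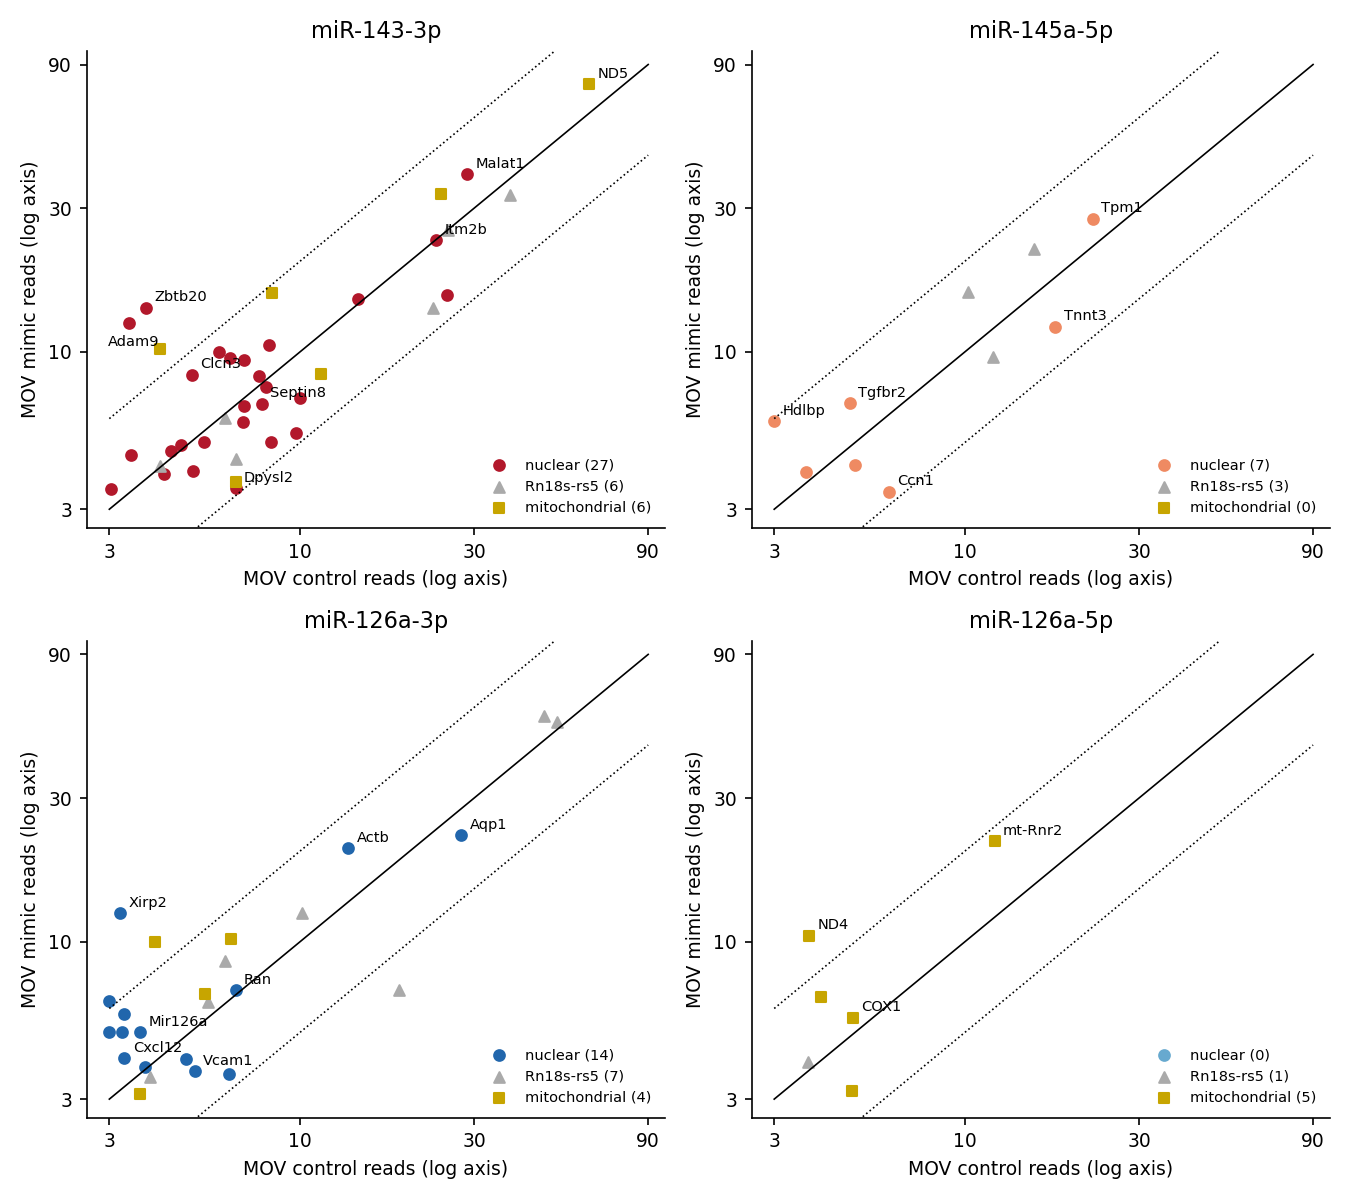
Reads at peaks shared by both libraries with at least 3 reads in each, control on the x axis and mimic on the y axis (log axes), 1 panel a miRNA, with nuclear sites as circles, Rn18s-rs5 as triangles and mitochondrial sites as squares. The solid line marks equal reads and the dotted lines a 2-fold difference. Most sites lie between the dotted lines, and Zbtb20, Adam9 and Xirp2 lie above them.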

How the data were processed

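Of the 4 libraries, the chimeric eCLIP-seq peak files of MOV control and MOV mimic entered the work. Their deposited values are estimated counts of chimeric reads for each peak and miRNA, unscaled and mostly fractional. How the fractions arose was not stated. Per the labels' processing notes the authors used UMI-tools 1.1.1, cutadapt 3.2, STAR 2.7.7a, Bowtie 1.2.3 and HOMER 4.11. The methods name mm9 and the processing notes mm10. The build was checked by gene overlap, with 99.1% and 99.2% of control and mimic peaks on RefSeq genes of GRCm38.p6 and 56.6% in both on genes of mm9, so coordinates are given in GRCm38, counted from 1. No genome sequence of that build was used here, so no sequence was read at target peaks.

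Genes were assigned by the longest same-strand overlap with the peak. The strand of 28097 genes came from RefSeq tables and of 8339 from GENCODE M1 by name. For the remaining 13561 genes of unknown strand, and for overlapping genes, near-identical copies and pseudogenes, the gene name is uncertain. How reads were divided among miRNAs of similar sequence was not stated.

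Reads were summed by miRNA, gene and list. Intervals were 95% Poisson, exact Clopper-Pearson or conditional binomial intervals on rounded reads, and an order-statistic interval for medians. They cover counting error only, and the functions were tested on simulated data. Differences in depth were not removed except where a scaled ratio is given. Tools were Python 3.11.15, pandas 2.3.3, numpy 2.4.6, scipy 1.17.1 and matplotlib 3.10.9.

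The members and the gene lists (15 smooth muscle, 18 endothelial, 31 muscle fibre, 22 fibroblast and matrix and 14 macrophage and leukocyte genes, and textbook targets from general knowledge) were chosen with earlier results of these data known. Named genes were, for each member, the 5 with the most nuclear reads over both libraries and the leading mitochondrial gene, textbook targets with a line of it (1 is not reported here), the 2 largest rises and 2 largest falls among shared peaks with at least 3 reads in both, and the 2 nuclear peaks with the largest share of the peak's reads. Genes named outside this rule were chosen after their values were seen. Alternatives were a division by library totals, minimums of 1 and 3 reads, leaving out mitochondrial RNA, Rn18s-rs5 or peaks of 20 or more miRNA names, a 50% reciprocal overlap, and peaks in place of reads.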

Additional observations from a re-analysis of the deposited data

How the results depend on the processing

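No paired analysis was possible because a single library stood for each group, and none could be left out. Alternatives numbered 25 for the read ratios (18 on the same side of 1 and within the interval of the main value), 20 for the overlap of peaks (7), 12 for the genes in both libraries (none within 1.5 times) and 55 for the gene list shares of most interest (31). Where a cause is not given it was not tested. No name miR-126b was seen, so that pooling could not be made. Division by library totals took the read ratio of miR-143-3p to 0.995, of miR-145a-5p to 0.919 and of miR-126a-3p to 1.12. For miR-145a-5p, lines of at least 1 read gave 0.986, of at least 3 reads 0.936, and peaks of under 20 names 0.919, all turned from 1.03, and at least 3 reads gave 1.38 for miR-126a-3p and 1.66 for miR-126a-5p.

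The overlap of control peaks, in the order miR-143-3p, miR-145a-5p, miR-126a-3p, fell with 50% reciprocal overlap to 28.0%, 23.8% and 16.9%. With at least 3 reads required of the peaks in both libraries it was 58.6%, 42.3% and 55.3%, and 70.0% for miR-126a-5p. With at least 1 read in both it was 41.0% for miR-143-3p, 26.9% for miR-126a-3p and 48.9% for miR-126a-5p. The shares by read class given earlier are higher at 3 or more reads because they set no minimum on the mimic peak. Counted from the mimic it was 17.2% for miR-126a-3p and 21.4% for miR-126a-5p, and without mitochondrial peaks 17.6% for the latter. Genes in both libraries, with miR-126a-5p last, were 104, 36, 74 and 13 with at least 1 read, 31, 9, 20 and 5 with at least 3, and 44, 27, 36 and 5 with at least 2 peaks, fewer by construction.

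Muscle fibre shares (control, mimic) without peaks of 20 or more names were 7.11% and 8.45% for miR-143-3p, 12.5% and 5.15% for miR-145a-5p, 1.76% and 1.49% for miR-126a-3p and 0% for miR-126a-5p in the control. With at least 3 reads they were 21.7% and 26.5%, 52.4% and 52.4%, 3.31% for miR-126a-3p in the mimic and 0% for miR-126a-5p in the mimic. By peaks they were 19.5% and 21.1% for miR-145a-5p and 5.22% and 9.57% for miR-126a-3p, and over all reads 12.1% and 14.9% for miR-143-3p. The smooth muscle share of miR-143-3p in the control was 0.884% by peaks and 3.14% with at least 3 reads, and that of miR-145a-5p in the mimic 0% with at least 3. The endothelial share of miR-126a-3p was 0% in both libraries with at least 3 reads, since no line on those genes had as many.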
